A study of Mus musculus with 6 samples.

Results

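Cells meet damaged or unfolded proteins and a shortage of amino acids with 3 linked programmes, and 48 genes of these programmes were followed here in cultured bone marrow progenitors of mice that had or lacked the microRNA miR-155. The 48 were taken by name from a list of stress genes, each read from the row of its own symbol with the highest mean, and 37 of them had such a row, out of 14860 named genes in all. They fall into an ATF4 and amino acid arm (14 of 17 listed genes measured), an endoplasmic reticulum arm and a heat shock arm (4 of 10). The endoplasmic reticulum arm is made of sensors, listed together with the factor Xbp1 (3 of 4), and of chaperones and degradation factors (16 of 17). Phgdh, Sars, Atf6, Hspa1b, Hspa8, Hsp90ab1, Hspd1, Hspe1 and Hsf1 had no row of their own name, and Aars and Dnajc3 lay in rows shared with other genes, so these 11 were not analysed here. The heat shock arm therefore rests on Hspa1a, Hsph1, Hsp90aa1 and Dnajb1. Besides its own row, Hspa1a was also named where a row held several gene symbols, and such rows were not used.

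The marrow donors were female C57Bl/6 mice, 12 weeks old and treated with fluorouracil (5-FU), which kills dividing marrow cells. Both groups carried Hoxa9 with a GFP reporter and Meis1 with a YFP reporter, delivered in MSCV retroviral vectors whose viral promoter drives expression, and grew in DMEM with 15% fetal calf serum, IL3, SCF and IL6. The knockout group had no miR-155 (3 arrays, called knockout 1 to 3) and the wild-type group had it (3 arrays, called wild type 1 to 3), so the contrast is miR-155 loss on top of Hoxa9 and Meis1, with no untransduced control and no stress treatment in either group. The design text speaks of independent experiments, but no label ties an array to an animal, a culture or a time in culture. The p-values therefore rest on the spread among 6 arrays, part of which may be technical. The annotation names no row for Mir155, so the loss of the deleted gene was not checked.

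In the endoplasmic reticulum, the sensors IRE1 (gene Ern1), PERK (Eif2ak3) and ATF6 detect unfolded protein and raise chaperones through the transcription factors XBP1 and ATF6. PERK, and separately a kinase that senses missing amino acids, phosphorylate the initiation factor eIF2. This slows protein synthesis while favouring translation of ATF4, a factor that turns on genes of amino acid supply. Heat shock genes answer to HSF1, and many of them, though not all, serve the cytosol. Cultured myeloid progenitors that fill granules with secreted proteases make heavy use of the endoplasmic reticulum. The microRNA removed from the knockout is shown because its absence is the contrast, with the seed, bases 2 to 8, in capitals. It lies at chr16:84714143-84714165 on the plus strand of GRCm38.p6, with the sequence as in RefSeq, and its target sites in these genes were not examined here.
mmu-miR-155-5p: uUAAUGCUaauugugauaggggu

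The values are log2 expression levels made by robust multi-array averaging (RMA), on which 1 unit is a doubling, and differences are given as knockout minus wild type. The median of all rows was 6.55 to 6.66 on the 6 arrays. Progenitor markers were present, with a mean log2 level over 6 of 6 listed genes (Kit, Cd34, Myb, Flt3, Cd33 and Gata2) of 10.53 to 10.56 on knockout and 10.57 to 10.62 on wild-type arrays. The mean over 11 neutrophil genes was 10.97 to 11.15 on knockout and 10.87 to 11.00 on wild-type arrays. A level of 5.98, the 95th percentile of 718 olfactory receptor genes, was taken as background. Of 3 measured erythroid genes 2 lay below it, as did 2 of 6 stromal, 2 of 5 T and NK cell and 1 of 5 plasma cell genes. In the T and NK list, Thy1 and Nkg7 read above it, at means of 11.6 and 10.88. The mean over 5 megakaryocyte genes, 0 of them below it, was 8.55 to 8.62 on knockout and 8.23 to 8.40 on wild-type arrays. In bulk RNA, fewer cells of a type and less RNA per cell cannot be told apart.

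No stress gene separated the genotypes by the test. Of the 37, 0 passed an adjusted p under 0.05 in limma, against 0.0269% of all 14860 genes. At an unadjusted p under 0.05 there were also 0, against 7.23% of all genes (1.78% higher and 5.44% lower in the knockout). The smallest p among the 37 was 0.0544, for Edem1, which adjusted to 0.706. The differences ran from −0.21 to 0.18 with a median of 0.01, where the median over all genes was −0.03. They were below 0 in 16 of the 37, or 43.2%, against 61.0% of all genes. That split was 13 of 37 with arrays brought to a common median, 14 of 37 with quantile normalisation and 26 of 37 without knockout 1. With the first 2 of these, the median over all genes was 0.003 and −0.001, so the 61.0% holds only for the values as deposited. The share of higher calls among all genes at an unadjusted p under 0.05 went with them from 24.7% to 47.8% and 45.8%.

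The 95% interval of the limma difference lay within 1.5-fold in either direction (0.585 on the log2 scale) for 36 of the 37 genes, with Hsp90aa1 the exception, and for 13438 of the 14860 genes in all. The intervals are per gene and not adjusted for their number, and RMA can compress small differences. In 26 of 37 genes, or 70.3%, the standard deviation within a genotype was larger than the difference between genotypes, which was so for 67.1% of all genes. The median size of the difference was 0.05, against 0.08 over all genes. The groups did not overlap for 4 stress genes, all lower in the knockout (Trib3, Herpud1, Sdf2l1 and Edem1), or 10.8%, where 13.3% of all genes did not overlap (10.4% lower and 2.88% higher).

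**Figure D1:**
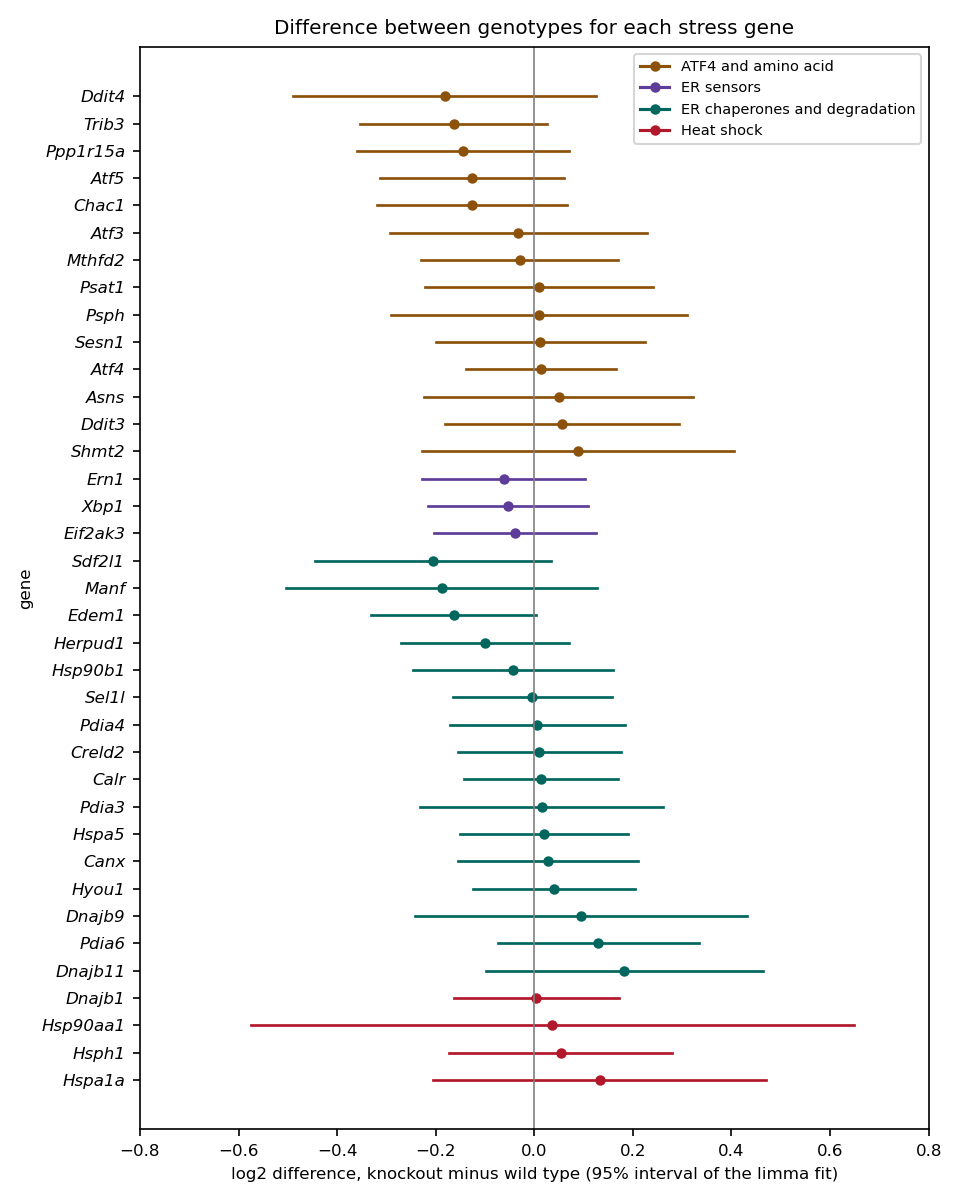
Log2 difference between knockout and wild type for each of the 37 measured stress genes, grouped by arm. Points are limma differences from 3 arrays a group and lines their 95% intervals, all of which cross 0, from the narrow interval of Atf4 (−0.14 to 0.17) to that of Hsp90aa1 (−0.57 to 0.65).

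The ATF4 and amino acid arm had a median difference of −0.01, with 7 of 14 genes above 0 and 7 below. The median of all genes was −0.03. Atf4 itself, whose protein is controlled mainly by translation, was the flattest of the stress genes. Its log2 level was 11.54, 11.55 and 11.52 on knockout 1, 2 and 3 and 11.54, 11.51 and 11.52 on wild type 1, 2 and 3. The whole range over the 6 arrays was 0.04, and 7 of the 14860 genes had a smaller one. Among the 177 genes at or above its level, whose median range was 0.22, 0 had a smaller one. The difference was 0.01 ± 0.07 (SE, 95% interval −0.14 to 0.17, adjusted p = 0.978).

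The transcription factors downstream of ATF4 did not pass either. Ddit3, which encodes CHOP, a promoter of cell death under lasting stress, stood at 8.25, 8.12 and 8.16 in the knockout, against 7.93, 8.24 and 8.20 in the wild type. Wild type 1 was the low array, and the groups overlapped, with a difference of 0.06 ± 0.10 (SE, adjusted p = 0.942). Atf5, a factor also under translational control, was at 6.53, 6.64 and 6.51 against 6.77, 6.60 and 6.69, a difference of −0.13 ± 0.08 (SE, adjusted p = 0.817). Wild type 2 lay between knockout arrays. Atf3, a stress-induced repressor, differed by −0.03, with knockout 3 at 7.62 and wild type 3 at 7.64 as its low arrays.

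The feedback and effector genes of the arm did not pass the test either. Trib3, a pseudokinase that restrains ATF4 and AKT signalling, was at 8.44, 8.51 and 8.37 in the knockout and 8.60, 8.52 and 8.70 in the wild type. The groups were apart by less than the second decimal, with a difference of −0.16 ± 0.08 (SE, 95% interval −0.35 to 0.03, adjusted p = 0.746). Ppp1r15a encodes GADD34, the phosphatase subunit that resets eIF2. It stood at 7.11, 7.36 and 7.21 against 7.45, 7.28 and 7.39, so knockout 2 lay above wild type 2, and the difference was −0.15 ± 0.09 (SE, adjusted p = 0.817). Chac1, which degrades glutathione, was at 9.32, 9.49 and 9.32 against 9.58, 9.43 and 9.50, a difference of −0.13 ± 0.08 (SE, adjusted p = 0.818). Ddit4 encodes REDD1, an inhibitor of the growth kinase mTORC1. Its levels were 8.74, 8.70 and 8.40 in the knockout and 8.90, 8.91 and 8.58 in the wild type, a difference of −0.18 ± 0.13 (SE, adjusted p = 0.844). Knockout 3 and wild type 3 were its low arrays, and without knockout 3 the difference was −0.07. Sesn1, a sestrin best known as a p53 target, differed by 0.01.

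Knockout 3 was the high array for several enzymes of amino acid and folate supply, a group formed after the values were seen. Asns, asparagine synthetase, was at 11.24, 11.27 and 11.64 in the knockout, against 11.32, 11.38 and 11.30 in the wild type. Psph, the last enzyme of serine synthesis, was at 8.34, 8.33 and 8.76 against 8.37, 8.50 and 8.52. Shmt2, which passes serine carbon into mitochondrial folate, was at 9.88, 10.09 and 10.42 against 10.09, 10.05 and 9.98. In each of these 3 genes knockout 3 was the highest array, above the mean of knockout 1 and 2 by 0.39, 0.43 and 0.44, while the other 5 arrays lay within 0.21 of each other at most. Psat1, the transaminase of serine synthesis, and Mthfd2, a mitochondrial folate enzyme, were also highest on knockout 3, by 0.19 and 0.13 over the mean of knockout 1 and 2, though a wild-type array came within 0.02 of it in each.

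By genotype these supply genes differed by 0.05 for Asns (adjusted p = 0.950), 0.01 for Psph (adjusted p = 0.992), 0.09 for Shmt2 (adjusted p = 0.927), 0.01 for Psat1 (adjusted p = 0.990) and −0.03 for Mthfd2 (adjusted p = 0.962). Without knockout 3 the differences of Asns, Psph and Shmt2 took the other sign, at −0.08, −0.13 and −0.06. The same array held the lowest value of Ddit4, Trib3, Atf3 and Atf5. In all, knockout 3 held the highest value for 5 of the 14 arm members (35.7%) and the lowest for 4 (28.6%), against 15.2% and 23.1% of all genes. The means of marker lists for some other cell types also stood apart on it. The mean over 8 of 8 mast cell and basophil genes was 10.07 on knockout 3 and 9.43 to 9.70 on the others, and the mean over 7 of 7 macrophage genes was 8.12 on it and 8.45 to 8.78 on the others. Most but not all members followed: Prss34 and Ms4a2 were highest on other arrays, and Mrc1 and C1qa were lowest on other arrays. None of the 8 and 1 of the 7 lay below the olfactory receptor level, and the part of these cells in the supply genes was not tested.

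**Figure D2:**
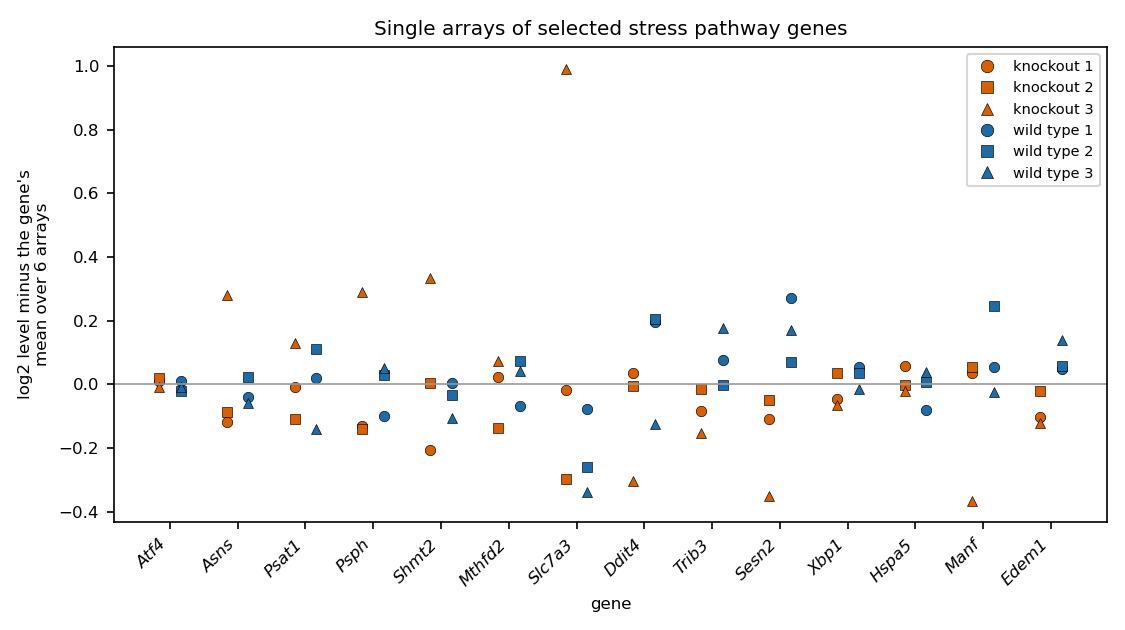
Log2 level of 14 stress pathway genes on each array, minus the gene's mean over the 6 arrays, with knockout arrays in orange, wild-type arrays in blue and a symbol for each replicate. Knockout 3 (orange triangle) is the highest array for Asns, Psat1, Psph, Shmt2, Mthfd2 and Slc7a3 and the lowest for Ddit4, Trib3, Sesn2, Xbp1, Manf and Edem1, while the 6 values of Atf4 lie within 0.04.

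A further 29 measured genes of the ATF4 programme (38 listed) gave 0 at an adjusted p under 0.05. At an unadjusted p under 0.05 there were 3 lower and 1 higher, where 5.44% of all genes were lower and 1.78% higher, and the median difference was −0.04. The groups did not overlap for 24.1% of the list, with 6 genes lower and 1 higher in the knockout, against 13.3% of all genes. Sesn2, a stress-induced inhibitor of mTORC1, stood at 9.02, 9.08 and 8.78 in the knockout against 9.40, 9.20 and 9.30 in the wild type, with no overlap. Its difference was −0.34 ± 0.10 (SE, unadjusted p = 0.0128, adjusted p = 0.538). Stc2, a secreted glycoprotein, was at 9.50, 9.39 and 9.38 against 9.64, 9.67 and 9.63, a difference of −0.22 ± 0.07 (SE, unadjusted p = 0.0165, adjusted p = 0.557). Cebpg, a partner of ATF4 named after its value was seen, was at 8.57, 8.64 and 8.51 against 8.66, 8.80 and 8.87, a difference of −0.20 (unadjusted p = 0.0457, adjusted p = 0.678). Slc38a2, a neutral amino acid carrier, was the higher gene, at 11.57, 11.49 and 11.52 against 11.38, 11.39 and 11.29, a difference of 0.18 ± 0.07 (SE, unadjusted p = 0.0409, adjusted p = 0.660). Slc7a3, a carrier of cationic amino acids, had the widest range of the list, 1.33, and 98.6% of all genes had a smaller one. It stood at 7.52, 7.24 and 8.53 in the knockout and 7.46, 7.28 and 7.20 in the wild type, so knockout 3 alone was high, 1.15 above the mean of knockout 1 and 2. The difference of 0.45 (adjusted p = 0.824) became 0.07 without knockout 3.

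ATF4 binds with C/EBP partners to the amino acid response element, searched here as TGATGNAAN on both strands. The RefSeq promoters searched run from 250 bases before to 50 after an annotated start. Of the 48 listed genes 41 had a promoter in the table. The letters occurred in 6 of these genes, Atf3, Chac1, Trib3, Asns, Aars and Herpud1, and in 3.95% of all 32851 promoters. The match in Trib3 lay after the start. Stretches from 3 measured genes are shown because they place the element beside genes of the ATF4 arm and the endoplasmic reticulum arm with differences of 0.05 (Asns), −0.13 (Chac1) and −0.10 (Herpud1). Capitals mark the match, which in Chac1 and Herpud1 reads on the opposite strand, and all are written 5′ to 3′ along the gene from GRCm38.p6, at chr6:7693210-7693272 (minus strand), chr2:119351008-119351096 (plus strand) and chr8:94386276-94386364 (plus strand). A match is a description of letters and not a binding site.
Asns: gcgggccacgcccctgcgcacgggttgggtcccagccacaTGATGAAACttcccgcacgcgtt
Chac1: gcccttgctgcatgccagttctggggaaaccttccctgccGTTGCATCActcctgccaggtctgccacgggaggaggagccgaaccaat
Herpud1: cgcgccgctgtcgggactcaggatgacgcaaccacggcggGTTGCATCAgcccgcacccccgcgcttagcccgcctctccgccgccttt

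The measured sensors of the endoplasmic reticulum, Ern1 and Eif2ak3, and the factor Xbp1 listed with them varied little. Ern1 stood at 10.45, 10.53 and 10.51 in the knockout, against 10.50, 10.57 and 10.61 in the wild type, a difference of −0.06 ± 0.07 (SE, adjusted p = 0.906). Eif2ak3 was at 8.13, 8.17 and 8.07 against 8.13, 8.21 and 8.14, a difference of −0.04 ± 0.07 (SE, adjusted p = 0.942). Xbp1, whose mRNA IRE1 splices into its active form, was at 11.83, 11.91 and 11.81 against 11.93, 11.91 and 11.86, a difference of −0.05 ± 0.07 (SE, adjusted p = 0.916). All 3 lay slightly below 0 with overlapping groups, their ranges over the 6 arrays were 0.13 to 0.16, and spliced Xbp1 was not read apart from the unspliced form.

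The chaperones and degradation factors of the endoplasmic reticulum had a median difference of 0.01, with 10 of 16 above 0 and 6 below. Hspa5 encodes BiP, the master chaperone that also holds the sensors inactive. Its level was 12.31, 12.25 and 12.23 in the knockout and 12.17, 12.26 and 12.29 in the wild type, and the difference was 0.02 ± 0.07 (SE, 95% interval −0.15 to 0.19, adjusted p = 0.971). The calcium-binding lectin chaperones Calr and Canx differed by 0.01 and 0.03. Calr had a range of 0.07 over the 6 arrays, and 0 of the 21 genes at or above its level had a smaller one. Differences were also small for Hsp90b1, the chaperone GRP94, at −0.04, for the disulphide isomerases Pdia3 at 0.01 and Pdia4 at 0.01, for Hyou1, a nucleotide exchange factor of BiP, at 0.04, and for the secreted stress protein Creld2 at 0.01.

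Members with the smallest p in this group pointed in both directions. Edem1, which extracts misfolded glycoproteins for degradation, was at 10.21, 10.29 and 10.19 in the knockout and 10.36, 10.37 and 10.45 in the wild type. Every knockout array lay below every wild-type array, by 0.07 at the nearest, and the difference was −0.16 ± 0.07 (SE, 95% interval −0.33 to 0.004, adjusted p = 0.706). Its unadjusted p came under 0.05 with a trend in the variance model or a filter on low levels, and the smallest adjusted p of any stress gene under the settings tried was 0.385 (Sdf2l1, with array weights). Sdf2l1, a cochaperone of BiP, was at 9.71, 9.93 and 9.91 against 10.03, 9.93 and 10.21, a difference of −0.21 ± 0.10 (SE, adjusted p = 0.748). Its groups were apart by less than the second decimal. Herpud1, a degradation scaffold, was at 10.24, 10.25 and 10.27 against 10.28, 10.34 and 10.44, a difference of −0.10 ± 0.07 (SE, adjusted p = 0.845). Sel1l, a partner in the same degradation machinery, differed by −0.004.

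Dnajb11, a BiP cochaperone, lay on the higher side, at 9.50, 9.32 and 9.28 in the knockout and 9.20, 9.39 and 8.97 in the wild type. The groups overlapped through wild type 2, and the difference was 0.18 ± 0.12 (SE, adjusted p = 0.824). Pdia6, a disulphide isomerase, was at 12.24, 12.08 and 12.11 against 11.99, 12.13 and 11.92, a difference of 0.13 ± 0.09 (SE, adjusted p = 0.824). Without wild type 2, Dnajb11 (0.28) and Sdf2l1 (−0.27) came under an unadjusted p of 0.05, as 9.93% of all genes did, and the smallest adjusted p was 0.493. Without wild type 3 the differences were 0.08 for Dnajb11 and −0.13 for Sdf2l1. Dnajb9, an XBP1-driven cochaperone, was at 10.54, 10.65 and 10.39 against 10.49, 10.66 and 10.13, with wild type 3 the low array and a difference of 0.09 ± 0.14 (SE, adjusted p = 0.927). Manf, a secreted factor of stressed cells, had the widest range of the group, 0.62, at 9.68, 9.70 and 9.28 against 9.70, 9.89 and 9.62. Knockout 3 was again the odd array, 0.41 below the mean of knockout 1 and 2, and the difference of −0.19 ± 0.13 (SE, adjusted p = 0.841) became −0.05 without it.

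**Figure D3:**
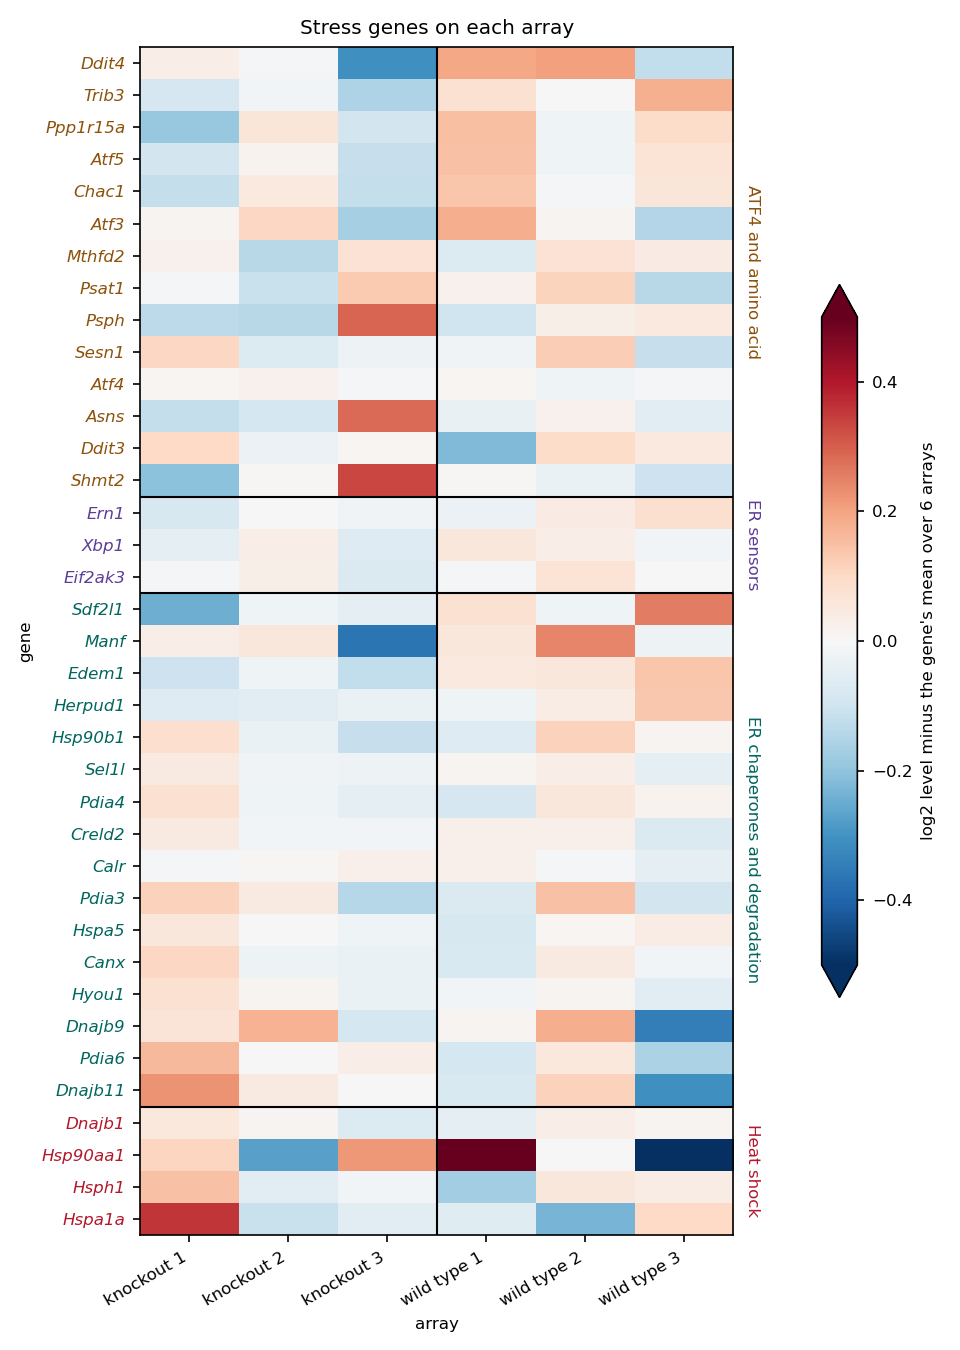
Log2 level of each of the 37 measured stress genes (rows, grouped by arm) on each of the 6 arrays (columns), minus the gene's mean over the arrays, with the colour scale ending at 0.5 in either direction. Single arrays stand out more than genotypes: knockout 3 for Asns, Psph and Shmt2 (high) and Ddit4 and Manf (low), wild type 3 for Dnajb9 and Dnajb11 (low), and wild type 1 (5.09) and wild type 3 (4.03) for Hsp90aa1.

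ATF6 and XBP1 act through the endoplasmic reticulum stress response element, searched as CCAAT and CCACG with 9 bases between them, on both strands. It occurred in the promoters of 7 listed genes, all of them chaperones or cochaperones of the endoplasmic reticulum or their secreted companion Creld2, and in 0.119% of all 32851 promoters. The 6 measured ones were Hspa5, Calr, Hsp90b1, Canx, Pdia6 and Creld2, and Hsp90b1 held it at 2 positions. Their differences were −0.04 to 0.13, and 0 of 6 had an unadjusted p under 0.05, where 7.23% of all genes did. Of these signs, those of Hspa5, Calr, Hsp90b1, Canx and Creld2 turned when 1 array was left out. Stretches of 3 genes are shown because they carry the element that joins this group, with the match in capitals and read on the opposite strand in Creld2. They are written 5′ to 3′ along the gene, all on the plus strand of GRCm38.p6, at chr2:34771985-34772083, chr12:17266451-17266549 and chr15:88819480-88819578.
Hspa5: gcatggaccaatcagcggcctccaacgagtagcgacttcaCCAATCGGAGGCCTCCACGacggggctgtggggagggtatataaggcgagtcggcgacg
Pdia6: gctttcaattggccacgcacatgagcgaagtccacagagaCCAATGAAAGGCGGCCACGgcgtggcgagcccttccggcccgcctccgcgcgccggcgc
Creld2: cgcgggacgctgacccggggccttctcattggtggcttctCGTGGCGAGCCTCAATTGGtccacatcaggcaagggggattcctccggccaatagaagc

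Another 34 measured endoplasmic reticulum genes (37 listed) gave 0 at an adjusted p under 0.05 and 1 at an unadjusted p under 0.05, where 7.23% of all genes passed. The median difference was −0.06 and 23 lay below 0 (67.65%, against 61.0% of all genes in the values as deposited). The groups did not overlap for 6 genes, all lower in the knockout (17.65%, against 10.4% of all genes lower and 13.3% in either direction). The gene with an unadjusted p under 0.05 was Sec61b, a subunit of the channel through which proteins enter the endoplasmic reticulum. It stood at 7.87, 8.06 and 8.20 in the knockout, against 8.22, 8.40 and 8.50 in the wild type, with no overlap, a difference of −0.33 ± 0.11 (SE, unadjusted p = 0.0201, adjusted p = 0.581). Sec61b also had the widest range of this list, 0.62. Edem2, a relative of Edem1, was at 9.89, 10.13 and 9.91 against 10.19, 10.10 and 10.23, a difference of −0.20 (adjusted p = 0.717) with knockout 2 above wild type 2. Os9, a lectin of the degradation pathway, was at 10.09, 10.15 and 9.95 against 10.24, 10.19 and 10.28, a difference of −0.18 (adjusted p = 0.724) with no overlap. Knockout 3 held the lowest value of 17 of the 34 genes, or 50%, against 23.1% of all genes.

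The median difference of the 4 measured heat shock genes was 0.05, and all 4 lay above 0 (without knockout 2 the median was 0.14 and without knockout 1 it was −0.01). The rows of Hspa1a and Hsp90aa1 lay below the olfactory receptor level, so their signs and their share of the median may not describe expression. At an unadjusted p under 0.05 there were 0 of the 4, where 7.23% of all genes passed, so 4 genes are too few for this count to describe the arm. Hsph1, an HSP110 disaggregase, was at 8.75, 8.55 and 8.59 in the knockout and 8.43, 8.66 and 8.64 in the wild type, a difference of 0.05 ± 0.10 (SE, adjusted p = 0.942). Dnajb1, the HSP40 partner of HSP70, was at 8.55, 8.51 and 8.43 against 8.45, 8.53 and 8.51, a difference of 0.004 ± 0.07 (SE, 95% interval −0.16 to 0.17, adjusted p = 0.994). Both had overlapping groups, and wild type 1 was the low array of Hsph1.

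Hspa1a, the inducible HSP70, read 4.85, 4.38 and 4.44 in the knockout and 4.43, 4.26 and 4.59 in the wild type, a difference of 0.13 ± 0.14 (SE, adjusted p = 0.900). Hspa1a is nearly identical to Hspa1b, so the source of its signal is uncertain. Hsp90aa1, the inducible HSP90, read 4.69, 4.31 and 4.80 against 5.09, 4.58 and 4.03, a difference of 0.04 ± 0.26 (SE, 95% interval −0.57 to 0.65, adjusted p = 0.984). Its range of 1.06 was the widest of the 37, and its sign was the other one with array weights (−0.25) and without knockout 1, knockout 3 or wild type 3 (down to −0.23). Whether these rows follow the genes' main transcripts was not tested. The heat shock element, searched as GAA, TTC and GAA with 2 bases between neighbours on both strands, occurred in the promoters of Hspd1, Hspe1 and Hsph1 and in 0.603% of all promoters. It lay after the annotated start in Hsph1, the 1 measured gene of the 3.

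A wider set of 30 measured heat shock, chaperone and related genes (36 listed) gave 0 at an adjusted p under 0.05. It also gave 0 at an unadjusted p under 0.05, where 7.23% of all genes passed. The median difference was 0.05, and 7 of the 30 lay below 0, against 61.0% of all genes in the values as deposited. The groups did not overlap for 2 genes, each higher in the knockout (6.67%, against 2.88% of all genes higher and 13.3% in either direction). Hspa4l, an HSP110 relative, was at 7.73, 7.64 and 7.73 in the knockout and 7.44, 7.59 and 7.60 in the wild type, with no overlap and a difference of 0.16 ± 0.08 (SE, adjusted p = 0.755). Cacybp, a partner of the ubiquitin ligase SIAH1, was at 11.97, 11.88 and 11.91 against 11.76, 11.86 and 11.83, a difference of 0.10 (adjusted p = 0.826), also with no overlap. Cryab, a small heat shock protein read below the olfactory receptor level, was at 5.46, 5.42 and 5.77 against 5.74, 5.53 and 5.89, a difference of −0.17 (adjusted p = 0.846) with overlap. Dnaja1, an HSP40 cochaperone, had the widest range, 0.86, at 7.10, 7.29 and 6.83 against 6.93, 7.35 and 6.49. Its groups overlapped, with a difference of 0.15 ± 0.22 (SE, adjusted p = 0.927). Single arrays again held the extremes: wild type 1 had the lowest value of 18 of the 30 genes (60.0%, against 13.3% of all genes) and knockout 1 the highest of 14 (46.7%, against 18.1% of all genes).

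Among the listed members, the array with the most highest values was knockout 1 for the chaperones and the heat shock genes and knockout 3 for the ATF4 genes. No test was run between arms. For the 14 ATF4 genes the lead was narrow, with 5 on knockout 3 and 4 on wild type 1. The wider ATF4 list of 29 had 8 on knockout 3 and 7 on wild type 2. In the wider endoplasmic reticulum list wild type 2 led with 38.2%, and knockout 1 held 17.65%, near its share of all genes. Knockout 1 was the highest array for 8 of the 16 endoplasmic reticulum chaperones and degradation factors (50%, against 18.1% of all genes) and for 3 of the 4 heat shock genes, of which 2 read below background, but for 1 of the 14 ATF4 genes. Wild type 3 was the lowest array for 7 of the 16 (43.8%, against 13.9% of all genes), and for 2 of the 14 ATF4 genes. Knockout 2 was the highest array for 1 of the 37 stress genes, and for 7.78% of all genes. These shares describe 6 arrays, and genes of 1 array share its RNA and its hybridisation.

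**Figure D4:**
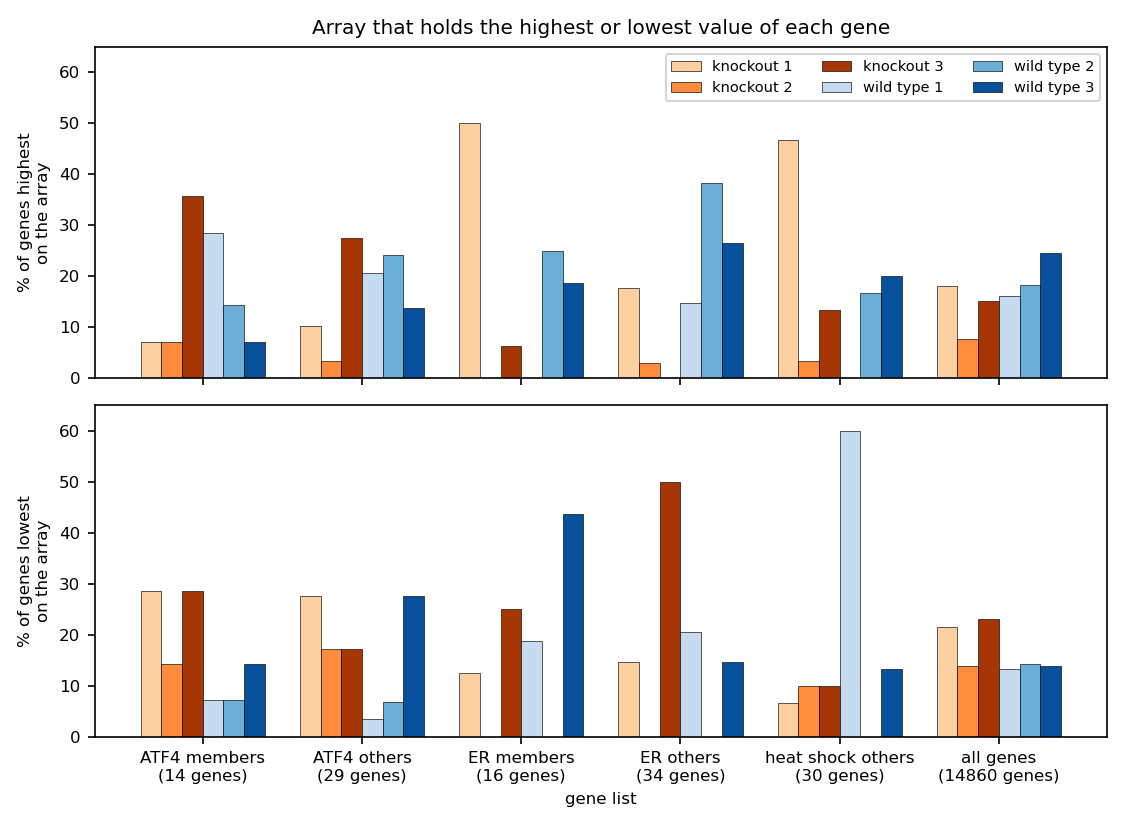
Percentage of the genes of each list whose highest (top) or lowest (bottom) value of the 6 arrays fell on each array, for 5 stress gene lists and for all 14860 genes. Wild type 1 holds the lowest value of 60.0% of the wider heat shock list, knockout 3 that of 50% of the wider endoplasmic reticulum list, and knockout 1 the highest value of 50% of the listed chaperones and degradation factors.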

How the data were processed

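Per the labels' protocols, RNA of the 6 samples was fragmented and biotinylated with Affymetrix's WT terminal labelling kit. The deposited table holds log2 levels, for which the submitters' processing notes name RMA and Affymetrix Expression Console. The tool versions were not given in the sources used here. Values of 0.90 to 13.74 gave the log2 scale. RMA gives all arrays similar distributions, which hides any difference in RNA content of the cells. Of 23332 rows, 14996 had 1 gene symbol in the platform annotation, and the row with the highest mean was kept for each of 14860 genes.

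Knockout and wild type were compared on all genes with limma 3.58.1 in R 4.3.3 (lmFit, eBayes), two-sided, with Benjamini-Hochberg adjustment over all genes and no filter. The fit was tested on simulated data. The smallest p that exact permutation allows for 3 against 3 is 0.1, and none was run. The number of arrays limits the precision. Members and lists were chosen with earlier results of these data known, so their counts are set beside those of all genes and no list was tested. Genes given in full were 5 anchors with a row, the 5 smallest p and 3 widest ranges of each arm, and of each wider list the 3 smallest p and the widest range, with Asns, Psat1, Mthfd2 and Cebpg added after their values were seen. Figures were drawn with matplotlib 3.10.9.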

Additional observations from a re-analysis of the deposited data

How the results depend on the processing

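No paired analysis was possible because the 3 titles of the wild-type arrays share 1 ending and so give no number that could match an array to a knockout array. The count of stress genes past the adjusted threshold was 0 under all alternatives, including a threshold of 0.1. At an unadjusted p under 0.05, 1 stress gene was lower with a filter at the 40th percentile of level, where 824 of all 8916 genes left passed, and 1 with a trend in the variance, where 1128 of all genes passed. The count over all genes was 1074 in the reported test and 2080 with array weights, with 0 stress genes in each. With 1 array left out the counts of stress genes ran from 0 to 1 lower and 0 to 1 higher. The ATF4 arm's median was 0.024 with median centring, 0.011 with quantile normalization and −0.043 with array weights, and −0.072 to 0.019 with 1 array left out. The heat shock arm's median ran from −0.011 to 0.139 with 1 array left out, and the filter on level left too few of its genes for a median. The other medians moved by less than the spread between replicates.

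Signs turned only for members with a main difference of 0.133 or less in size. With array weights they were −0.016 for Asns, −0.039 for Psat1, −0.046 for Psph, −0.002 for Creld2 and −0.248 for Hsp90aa1. Median centring gave 0.002 for Atf3, 0.005 for Mthfd2 and 0.03 for Sel1l, and quantile normalization 0.002 for Hsp90b1 and 0.007 for Sel1l. Leaving out 1 array gave ranges that cross 0 for the following genes, and the cause was not tested. They were −0.08 to 0.119 for Asns, −0.113 to 0.05 for Atf3, −0.004 to 0.03 for Calr, −0.02 to 0.058 for Canx, −0.022 to 0.028 for Creld2 and −0.041 to 0.114 for Ddit3. They were −0.023 to 0.037 for Dnajb1, −0.054 to 0.212 for Dnajb9, −0.233 to 0.297 for Hsp90aa1, −0.097 to 0.005 for Hsp90b1, −0.013 to 0.22 for Hspa1a and −0.017 to 0.046 for Hspa5. They were −0.02 to 0.098 for Hsph1, −0.072 to 0.033 for Mthfd2, −0.042 to 0.093 for Pdia3, −0.034 to 0.037 for Pdia4, −0.059 to 0.067 for Psat1 and −0.133 to 0.082 for Psph. They were −0.027 to 0.014 for Sel1l, −0.045 to 0.076 for Sesn1 and −0.057 to 0.212 for Shmt2, and for Dnaja1, from the wider heat shock list, −0.068 to 0.363.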
